A study of Mus musculus with 10 samples.

Results

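Rab GTPases and the Dennd genes, which code for exchange factors with a DENN (differentially expressed in normal and neoplastic cells) domain, were examined in lymphatic endothelial cells (LEC) of mouse melanomas. The members were all rows of the gene table whose symbol is Rab with digits and at most 1 letter, or begins with Dennd and a digit. They were 73 of 23510 rows, 59 Rab genes and 14 Dennd genes. Symbols picked the members, but the families had been selected on measured values, the gene counts of this same comparison of anti-Ang2 with IgG. The counts of changed members below are therefore a description, and no support was drawn from them.

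Rab proteins are small GTPases that mark the surface of transport vesicles and organelles and switch between a GTP-bound active and a GDP-bound inactive form. Exchange factors load them with GTP, GTPase-activating proteins of the TBC family end the active state, and GDP dissociation inhibitors take the inactive form off the membrane. In endothelial cells Rab proteins steer receptor recycling, delivery of junction proteins to the surface and the release of Weibel-Palade bodies, the storage granules in which angiopoietin-2 (Ang2), a ligand of the receptor Tie2, is kept.

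The 2 groups of 5 mice were C57BL/6N animals that carried implanted fragments of the MT-ret melanoma, a tumour of mice with a ret oncogene under the metallothionein promoter, on the flank. They had received an intraperitoneal injection of an antibody against Ang2 (anti-Ang2) or of IgG, the control, and were killed 12 h later. Tumour LEC were sorted by flow cytometry, and the surface markers of the sort, the age and the sex of the mice are not given in the sources used here. Libraries were prepared separately for each animal with 0.5 ng of input RNA, and the design states independent biological replicates.

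Library totals ran from 38090933 to 83850341 counts. The 8 markers of the labelled cell type (Prox1, Lyve1, Pdpn, Flt4, Ccl21a, Reln, Mmrn1 and Pecam1) were all expressed, and Prox1 averaged 1161 CPM (counts scaled to the TMM library size) after anti-Ang2 and 1283 CPM after IgG. The chemokine gene Ccl21a fell to 379 CPM after anti-Ang2, against 883 CPM after IgG (log2 fold change -1.22 ± 0.19, edgeR adjusted p = 0.00447). At an unadjusted p under 0.05, 4 of the 8 were lower (Ccl21a, Flt4, Pdpn and Mmrn1) and 2 higher (Lyve1 and Reln), and the part of these shifts in the values of the Rab and Dennd genes was not tested. The markers summed to 14650 to 19635 CPM in anti-Ang2 libraries and to 17627 to 20918 CPM in IgG libraries. RNA of pigment cells was present as well. The 12 melanoma markers, all detected, summed to 5580, 3976, 4573, 1715 and 1134 CPM in anti-Ang2 libraries 1 to 5, against 442, 1753, 269, 1862 and 579 CPM in IgG libraries 1 to 5. Anti-Ang2 libraries 1, 2 and 3 lay above every IgG library and the groups overlapped (exact permutation test, two-sided, p = 0.0476, adjusted p = 0.167 over 7 marker lists). Blood endothelial markers summed to 2802 ± 925 CPM in anti-Ang2 libraries and 4611 ± 869 CPM in IgG libraries (SD, n = 5 each, exact permutation p = 0.0238, adjusted p = 0.167). Macrophage markers summed to 71.5 to 276 CPM in anti-Ang2 libraries and 52.1 to 206 CPM in IgG libraries, with a second row for Itgam at 0 in every library. Fibroblast and pericyte markers summed to 424 to 1025 CPM in anti-Ang2 libraries and 222 to 978 CPM in IgG libraries. Keratinocyte markers summed to at most 2.10 CPM in anti-Ang2 libraries and 3.84 CPM in IgG libraries, and lymphocyte markers to at most 3.38 CPM in anti-Ang2 libraries and 8.22 CPM in IgG libraries. In such bulk samples, fewer cells of a type and less RNA per cell cannot be told apart.

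After anti-Ang2, 2 exchange factor genes and 1 Rab gene were called lower by edgeR, and no member was called higher. The alternative tool DESeq2 called 4 Rab genes higher and 2 lower, and limma-voom 5 and 2. Over all genes with an adjusted p, these 2 tools called 5.46% and 4.13% higher and 5.94% and 4.80% lower. Dennd2a, which activates Rab9 in assays of the human protein, fell by 0.74 on the log2 scale. Dennd6b, an exchange factor for Rab14 in such assays, fell by 0.54. Rab13, a GTPase of transport to tight junctions, fell by 0.52. A gene was called when its Benjamini-Hochberg adjusted p in the edgeR quasi-likelihood test lay under 0.05 over the 16240 genes that passed the filter, of which 66 were members. Over all tested genes 217 were called higher and 454 lower, which is 1.34% and 2.80% and together 4.13%. The median log2 fold change was 0.01 over all tested genes, 0.05 over the 53 tested Rab genes and -0.28 over the 13 tested Dennd genes.

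**Figure D1:**
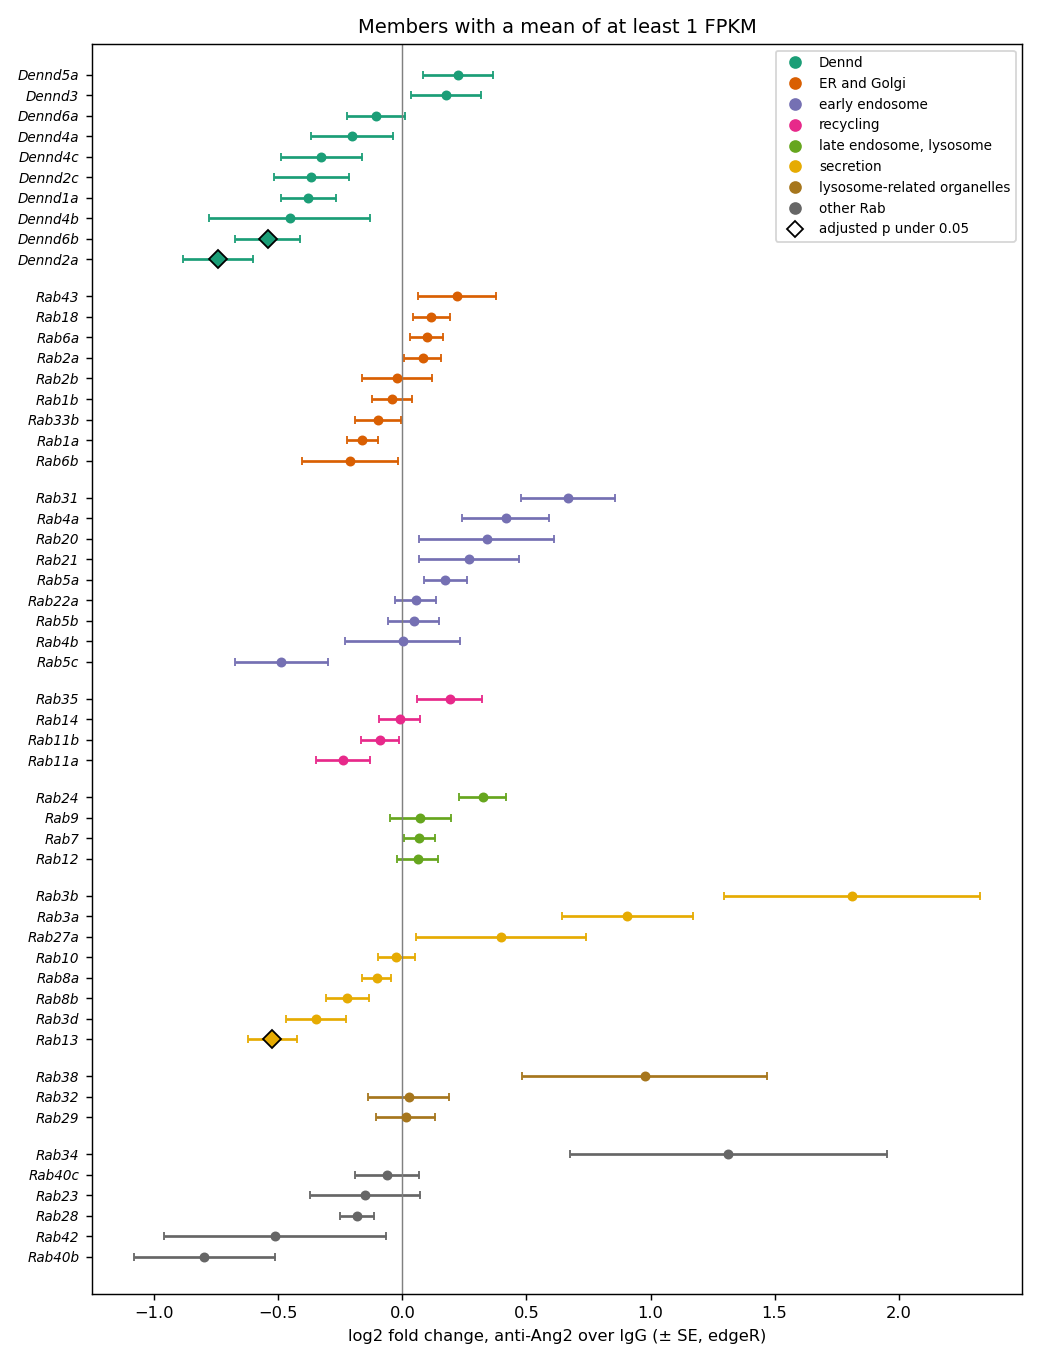
Log2 fold change of anti-Ang2 over IgG (x axis, bars ± SE derived from the edgeR F statistic, n = 5 per group) for each member with a mean of at least 1 FPKM (y axis), coloured by role. Diamonds mark the 3 members with an adjusted p under 0.05, Dennd2a at -0.74, Dennd6b at -0.54 and Rab13 at -0.52.

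Dennd2a had 76.8, 74.3, 75.7, 63.3 and 47.5 CPM in anti-Ang2 libraries, against 112, 116, 107, 94.6 and 136 CPM in IgG libraries. Every anti-Ang2 library lay below every IgG library, with anti-Ang2 5 the lowest of the 10. The means were 67.5 ± 12.4 CPM after anti-Ang2 and 113 ± 15.3 CPM after IgG (SD, n = 5 each), a log2 fold change of -0.74 ± 0.14 (SE; edgeR adjusted p = 0.0123). The call held in 10 of 10 fits that left out 1 library. With the melanoma marker sum as a covariate the log2 fold change was -0.92 ± 0.20 (adjusted p = 0.072), and without anti-Ang2 libraries 1, 2 and 3 it was -1.04 (adjusted p = 0.0403).

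Dennd6b was scarcer, with 11.8, 14.3, 14.2, 16 and 17.5 CPM in anti-Ang2 libraries, against 20.1, 22.9, 23.2, 18.2 and 23.2 CPM in IgG libraries. The groups did not overlap, but anti-Ang2 5 and IgG 4 came within 1 CPM of each other. The means were 14.8 ± 2.13 CPM after anti-Ang2 and 21.5 ± 2.28 CPM after IgG (SD, n = 5 each), a log2 fold change of -0.54 ± 0.13 (SE; edgeR adjusted p = 0.0438). This call was close to the threshold. It held only when anti-Ang2 5 or IgG 4 was the library left out, and in the other 8 such fits, without anti-Ang2 1, 2, 3 or 4 or IgG 1, 2, 3 or 5, the adjusted p was up to 0.117. With the melanoma marker sum as a covariate the log2 fold change was -0.34 (adjusted p = 0.401), and without anti-Ang2 1, 2 and 3 it was -0.37 (adjusted p = 0.292).

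Rab13 had 34.3, 29.8, 33.5, 38.7 and 37.4 CPM in anti-Ang2 libraries, against 44.6, 53.1, 56.9, 45.7 and 49.3 CPM in IgG libraries. All anti-Ang2 values lay below all IgG values. The means were 34.7 ± 3.50 CPM after anti-Ang2 and 49.9 ± 5.11 CPM after IgG (SD, n = 5 each), a log2 fold change of -0.52 ± 0.10 (SE; edgeR adjusted p = 0.0138). The call held in 10 of 10 fits that left out 1 library. It was lost with the melanoma marker sum (-0.41 ± 0.13, adjusted p = 0.214) or the macrophage marker sum (-0.46, adjusted p = 0.114) as a covariate, and without anti-Ang2 1, 2 and 3 (-0.40, adjusted p = 0.17).

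**Figure D2:**
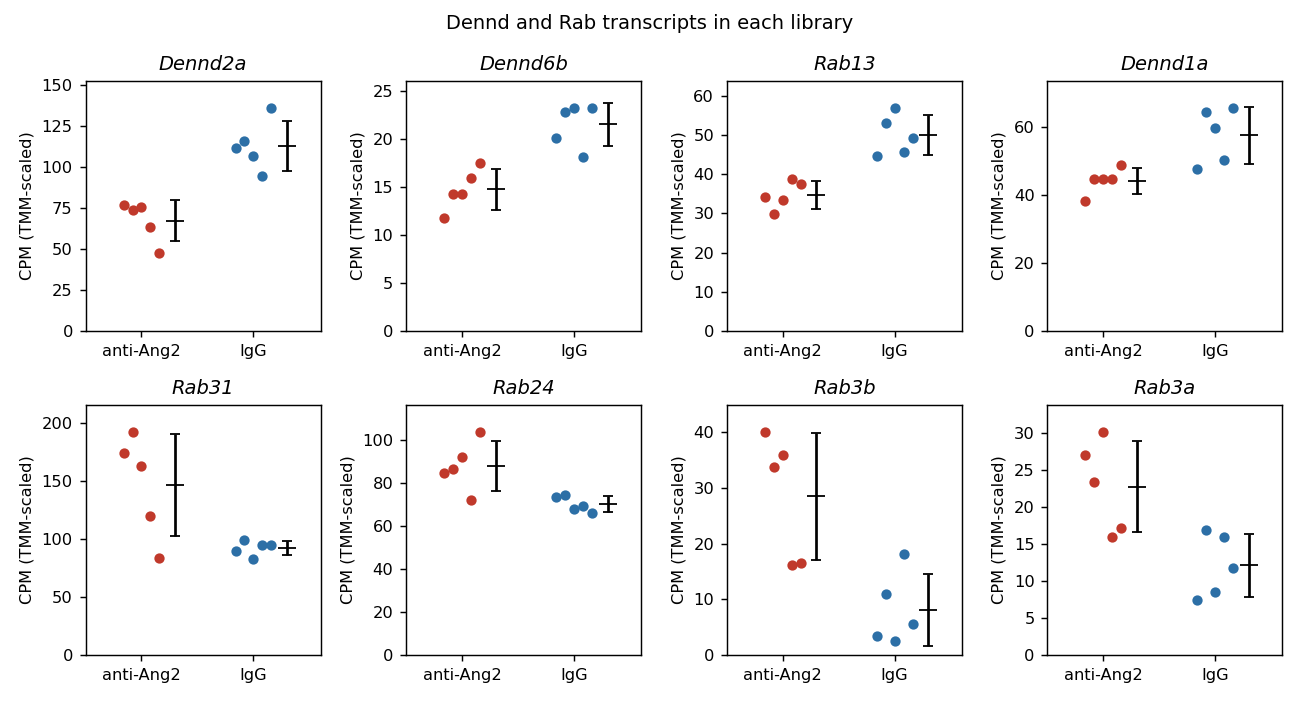
Each panel plots 1 gene in CPM scaled to the TMM library size (y axis), with a point per library in order 1 to 5, anti-Ang2 in red and IgG in blue, and a bar for the mean ± SD (n = 5). Dennd2a, Dennd6b and Rab13 do not overlap between the groups, whereas Rab31, Rab24, Rab3b and Rab3a have 1 or more anti-Ang2 libraries within or under the IgG range.

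The sequences around the RefSeq start sites of the 3 genes that fell are shown because these genes moved in the same direction. Each runs from 250 bases before to 50 bases after the start, 5′ to 3′ on the gene's own strand, in the GRCm38.p6 build, and capitals mark matches to the motifs below. Dennd2a (chr6:39557785-39558084, minus strand), Dennd6b (chr15:89196425-89196724, minus strand) and Rab13 (chr3:90213465-90213764, plus strand) read as follows.
Dennd2a: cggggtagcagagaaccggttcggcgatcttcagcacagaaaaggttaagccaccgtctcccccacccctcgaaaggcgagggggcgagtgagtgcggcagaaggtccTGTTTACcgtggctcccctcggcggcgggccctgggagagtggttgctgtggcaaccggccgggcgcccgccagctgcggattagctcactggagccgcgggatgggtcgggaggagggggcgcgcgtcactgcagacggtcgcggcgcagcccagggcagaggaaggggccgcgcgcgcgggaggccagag
Dennd6b: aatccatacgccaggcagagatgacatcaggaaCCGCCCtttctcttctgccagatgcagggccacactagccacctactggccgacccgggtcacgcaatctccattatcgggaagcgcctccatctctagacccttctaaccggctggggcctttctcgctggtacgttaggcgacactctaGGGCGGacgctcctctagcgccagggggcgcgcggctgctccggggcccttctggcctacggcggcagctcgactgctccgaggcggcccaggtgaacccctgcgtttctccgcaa
Rab13: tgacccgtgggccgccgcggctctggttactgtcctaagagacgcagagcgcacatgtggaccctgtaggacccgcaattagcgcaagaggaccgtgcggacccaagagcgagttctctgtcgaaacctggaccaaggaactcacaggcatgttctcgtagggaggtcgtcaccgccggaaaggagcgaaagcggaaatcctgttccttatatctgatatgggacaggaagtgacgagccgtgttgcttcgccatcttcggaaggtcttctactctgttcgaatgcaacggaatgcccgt

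Both strands were searched for GTAAACA, the core bound by forkhead proteins of the FOXO class, CACGTG, the E-box core of the lysosomal regulator TFEB, GGGCGG, the core of Sp1 sites, and TATAAA, the TATA box. None of these motifs contains another. The Dennd2a window held 1 match to GTAAACA, which 3.65% of all 32851 promoters in the RefSeq table held, and the Dennd6b window held 2 matches to GGGCGG, found in 35.7% of all promoters. The Rab13 window held 0 matches to these 4 motifs, and the promoter of its other RefSeq start (chr3:90220534-90220833) held 1 match to GGGCGG. RefSeq promoters were matched for 61 of the 73 members (80 promoters). GTAAACA was present for 3 of these genes (Dennd2a, Rab39b and Rab43), CACGTG for 7, GGGCGG for 45 and TATAAA for 7. Per promoter, 3.75% of the 80 member promoters held GTAAACA and 10% CACGTG, against 3.65% and 7.15% of all promoters. GGGCGG was in 66.2% of member promoters and TATAAA in 8.75%, against 35.7% and 13.6% of all promoters. The median GC content was 61% over member promoters and 52.7% over all promoters. A match is a run of letters and not a binding site.

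In GENCODE M21 on mm10, Dennd2a spans chr6:39462378-39557867 (minus strand), Dennd6b chr15:89182213-89196496 (minus strand) and Rab13 chr3:90213695-90226385 (plus strand). Rab13 shares no exonic base with another gene, while 0.98% of the exonic bases of Dennd2a and 1.24% of those of Dennd6b are shared.

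Among the Dennd genes, 11 of 13 tested had a negative log2 fold change, 2 of them called, and 2 had a positive one, uncalled. At an unadjusted p under 0.05 there were 4, all lower, and 0 higher; 18.2% of all tested genes passed that level in either direction, 9.10% lower. DESeq2 and limma-voom each called 3 Dennd genes lower and 0 higher, the third being Dennd1a. These tools called 5.94% and 4.80% of all genes with an adjusted p lower, where edgeR called 2.80%. Dennd1a, an exchange factor for Rab35 in human assays, had 38.2, 44.8, 44.8, 44.7 and 48.8 CPM in anti-Ang2 libraries, against 47.5, 64.5, 59.8, 50.2 and 65.7 CPM in IgG libraries. Anti-Ang2 5 lay above IgG 1, so the groups overlapped, and the log2 fold change was -0.38 ± 0.11 (SE; edgeR adjusted p = 0.0829, and 0.046 without IgG 1). Dennd1a is given in this detail because of its values.

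By level per gene length, in the deposited FPKM, Dennd3 and Dennd6a were the most abundant Dennd transcripts. Dennd3, which acts on Rab12, had 17.3, 15.8, 18.0, 19.1 and 20.02 FPKM in anti-Ang2 libraries, against 16.4, 15.5, 14.2, 11.5 and 20.8 FPKM in IgG libraries. IgG 5 was the highest and IgG 4 the lowest of the 10, so the IgG range enclosed the anti-Ang2 range (log2 fold change 0.18 ± 0.14, edgeR adjusted p = 0.586). Dennd6a, the Rab14 exchange factor next to Dennd6b, had 11.9, 13.3, 12.3, 15.9 and 18.7 FPKM in anti-Ang2 libraries, against 15.7, 13.8, 14.8, 17.5 and 14.6 FPKM in IgG libraries. Its groups overlapped, with anti-Ang2 1 the lowest and anti-Ang2 5 the highest of all (log2 fold change -0.11 ± 0.12, adjusted p = 0.722).

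The exchange factors for Rab10 all had negative, uncalled log2 fold changes, of which Dennd4a was called without anti-Ang2 4 and 5 (-0.46, edgeR adjusted p = 0.0435), a fit in which 3.49% of all tested genes were lower. Dennd4a averaged 155 ± 44.0 CPM after anti-Ang2 and 178 ± 23.3 CPM after IgG, Dennd4b 16.6 ± 4.32 CPM after anti-Ang2 and 22.8 ± 10.8 CPM after IgG, and Dennd4c 31.6 ± 4.99 CPM after anti-Ang2 and 39.6 ± 8.99 CPM after IgG (SD, n = 5 each). Dennd5a, which belongs to a pair that acts on Rab39 in human assays, averaged 118 ± 26.6 CPM after anti-Ang2 and 101 ± 11 CPM after IgG, and Dennd5b 15.7 ± 4.55 CPM after anti-Ang2 and 17.9 ± 3.10 CPM after IgG. The other members whose symbol begins with Dennd2, Dennd2c and Dennd2d, did not reach the threshold. Dennd2c averaged 34.5 ± 6.57 CPM after anti-Ang2 and 44.5 ± 6.96 CPM after IgG (log2 fold change -0.37 ± 0.15, edgeR adjusted p = 0.216), and Dennd2d averaged 0.976 ± 0.32 CPM after anti-Ang2 and 1.14 ± 0.58 CPM after IgG. Dennd1b averaged 16.6 ± 3.77 CPM after anti-Ang2 and 20.04 ± 4.41 CPM after IgG. Dennd1c was not tested, with counts in 3 of 10 libraries and at most 52.

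The Rab genes paired with the fallen exchange factors were uncalled. Rab9, of traffic between late endosomes and the trans-Golgi network, had 31.7, 32.4, 33.6, 41.1 and 40.9 CPM in anti-Ang2 libraries, against 27.8, 31.1, 35.0, 39.6 and 37.4 CPM in IgG libraries. The groups overlapped, and the log2 fold change was 0.07 ± 0.12 (edgeR adjusted p = 0.835). Rab14, of traffic between endosomes and the Golgi, had 257, 253, 262, 301 and 308 CPM in anti-Ang2 libraries, against 295, 261, 268, 304 and 263 CPM in IgG libraries. Its groups overlapped too, with a log2 fold change of -0.01 ± 0.08 (adjusted p = 0.964). The Rab35, Rab12 and Rab10 transcripts had log2 fold changes of 0.19 ± 0.13, 0.06 ± 0.08 and -0.03 ± 0.07, all uncalled, and Rab39 was not tested.

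Rab transcripts spanned a wide range of levels. Of the 59, 28 averaged at least 10 FPKM, 15 lay from 1 to 10 and 16 under 1. Their summed level was 1522 ± 60.8 FPKM after anti-Ang2 and 1495 ± 39.7 FPKM after IgG (SD, n = 5 each), and that of the Dennd genes 86.5 ± 5.20 FPKM after anti-Ang2 and 96.3 ± 4.33 FPKM after IgG. The 3 most abundant Rab transcripts, Rab11a, Rab1b and Rab2a, made up 37.8% of the Rab sum after anti-Ang2 and 40.2% after IgG. Of the 28 abundant Rab genes, 22 had a log2 fold change within 0.25 of 0, with a median SE of 0.09. The 6 that were not tested were Rab19, Rab25, Rab37, Rab39, Rab44 and Rab9b.

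**Figure D3:**
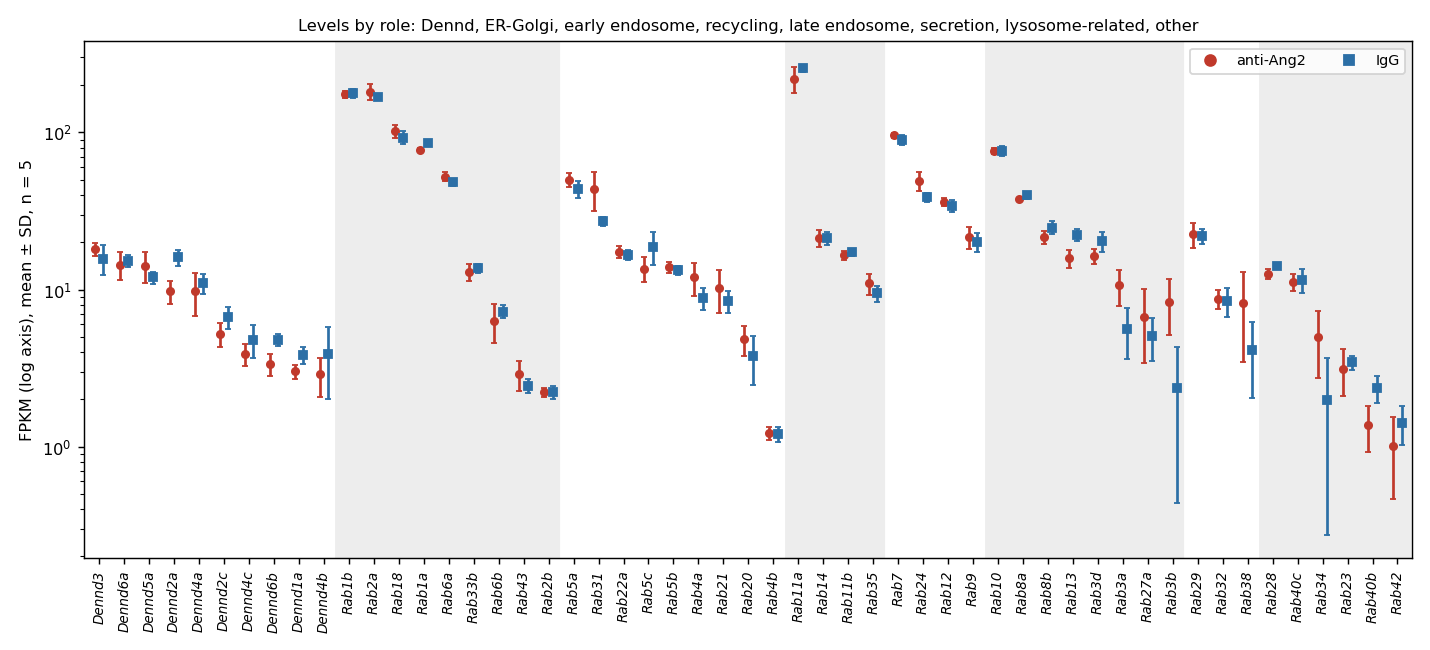
Mean level ± SD (y axis, FPKM on a log axis, n = 5 per group) of each member with a mean of at least 1 FPKM (x axis), anti-Ang2 as red circles left of IgG as blue squares, with shading that separates the roles. Rab11a averaged 220 FPKM after anti-Ang2 and 256 FPKM after IgG, and the most abundant Dennd transcript, Dennd3, 18.1 FPKM after anti-Ang2 and 15.7 FPKM after IgG.

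Rab11a, the GTPase of the recycling endosome, was the most abundant, at 185, 190, 198, 247 and 282 FPKM in anti-Ang2 libraries, against 263, 237, 274, 253 and 250 FPKM in IgG libraries. Anti-Ang2 1, 2 and 3 lay below every IgG library and anti-Ang2 5 above every one (log2 fold change -0.24 ± 0.11, edgeR adjusted p = 0.271). Rab1b, of transport from the endoplasmic reticulum to the Golgi, had 180, 176, 183, 172 and 162 FPKM in anti-Ang2 libraries, against 166, 196, 179, 166 and 178 FPKM in IgG libraries (log2 fold change -0.04 ± 0.08). Rab2a, which acts at the Golgi, had 163, 163, 173, 195 and 211 FPKM in anti-Ang2 libraries, against 176, 161, 172, 175 and 158 FPKM in IgG libraries (0.08 ± 0.07). Both overlapped between the groups. Rab18, found on the endoplasmic reticulum and lipid droplets, had 102, 93.2, 93.1, 115 and 107 FPKM in anti-Ang2 libraries, against 102, 83.8, 87.0, 103 and 88.7 FPKM in IgG libraries (0.12 ± 0.08). Rab7, of late endosomes, had 95.8, 93.1, 92.5, 96.7 and 101 FPKM in anti-Ang2 libraries, against 98.7, 89.3, 83.5, 95.1 and 84.2 FPKM in IgG libraries (0.07 ± 0.06). These overlapped as well, and the adjusted p of the 4 genes Rab1b, Rab2a, Rab18 and Rab7 lay from 0.472 to 0.856.

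By role, the 11 tested Rab genes of the endoplasmic reticulum and Golgi kept within a log2 fold change of -0.31 to 0.22, and all were uncalled. One of them, Rab1a, had every anti-Ang2 library (272 to 295 CPM) below every IgG library (299 to 331 CPM), with a log2 fold change of -0.16 ± 0.06 and an adjusted p of 0.188. Of 9 early endosomal Rab genes, all uncalled, 8 had a positive log2 fold change and Rab5c, an isoform of the Rab5 GTPases that guide fusion of early endosomes, a negative one. Of the 8, Rab4b (0.0004 ± 0.23), Rab5b (0.04 ± 0.10) and Rab22a (0.05 ± 0.08) lay within 1 SE of 0. Over all tested genes, 8439 of 16240 had a positive log2 fold change. Rab5c averaged 28.6 ± 5.34 CPM after anti-Ang2 and 40.1 ± 10.0 CPM after IgG (log2 fold change -0.49 ± 0.19, edgeR adjusted p = 0.187). All 6 tested late endosomal and lysosomal Rab genes had positive log2 fold changes, uncalled by edgeR, from 0.06 ± 0.08 (Rab12) to 1.26 ± 1.04 (Rab7b). The 6 tested recycling Rab genes ran from -0.24 ± 0.11 (Rab11a) to 1.33 ± 1.33 (Rab17). Rab7b and Rab17, at the upper ends, averaged 0.31 and 0.20 FPKM over all libraries. Rab28, which acts in cilia and photoreceptors, was the other uncalled Rab gene whose groups did not overlap, with 50.3 to 58.0 CPM after anti-Ang2 and 58.6 to 64.5 CPM after IgG (-0.18 ± 0.07, adjusted p = 0.176). In all, 5 of 66 tested members had groups that did not overlap, all with anti-Ang2 lower, against 6.10% of all tested genes in either direction and 3.76% with anti-Ang2 lower.

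No Rab gene was called higher by edgeR, although 6 were higher at an unadjusted p under 0.05 (and 8 lower), against 9.14% and 9.10% of all tested genes. DESeq2 called 4 higher, Rab31, Rab3b, Rab24 and Rab3a, and limma-voom added Rab3c. Over all genes with an adjusted p, DESeq2 called 5.46% higher and limma-voom 4.13%, where edgeR called 1.34%. Without anti-Ang2 4 and 5, edgeR called the 4 genes that DESeq2 named, and 3.10% of all tested genes, higher. At an adjusted p under 0.05, the authors' deposited table had 4 Rab genes higher and 1 lower, and 0 Dennd genes higher and 3 lower. Of all 18359 genes with an adjusted p in the authors' deposited table, 4.25% were higher and 4.83% lower at that level. The 4 genes are described because of these values. Rab31, of transport between the trans-Golgi network and endosomes, had 174, 193, 163, 120 and 83.4 CPM in anti-Ang2 libraries, against 89.5, 99.2, 82.9, 94.7 and 94.6 CPM in IgG libraries. Anti-Ang2 1 to 4 lay above all IgG libraries and anti-Ang2 5 among them. The log2 fold change was 0.67 ± 0.19 (SE; edgeR adjusted p = 0.0767), and 0.82 (adjusted p = 0.00598) without anti-Ang2 5.

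Rab3b and Rab3a belong to a subfamily of regulated exocytosis. Rab3b had 40.2, 33.8, 35.9, 16.2 and 16.5 CPM in anti-Ang2 libraries, against 3.43, 11, 2.45, 18.1 and 5.52 CPM in IgG libraries. The IgG 4 library exceeded anti-Ang2 4 and 5, and all others of the IgG group lay below every anti-Ang2 library (log2 fold change 1.81 ± 0.52, edgeR adjusted p = 0.0778, and 0.0267 without IgG 4). Rab3a had 27.0, 23.3, 30.2, 16 and 17.2 CPM in anti-Ang2 libraries, against 7.44, 16.9, 8.48, 15.9 and 11.8 CPM in IgG libraries. Its IgG 2 value lay above anti-Ang2 4, so the groups overlapped (0.91 ± 0.26, adjusted p = 0.084). Rab3c, of the same subfamily, was near the detection limit at 0.51 ± 0.35 CPM after anti-Ang2 and 0.05 ± 0.11 CPM after IgG. In contrast to these 3, Rab3d, a GTPase of secretory granules that also sits on Weibel-Palade bodies, averaged 65.5 ± 6.83 CPM after anti-Ang2 and 83.4 ± 13.8 CPM after IgG (-0.35 ± 0.12, adjusted p = 0.149).

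Rab24, a Rab with a role in autophagy, had 84.7, 86.6, 92.3, 72.2 and 104 CPM in anti-Ang2 libraries, against 73.6, 74.3, 68.2, 69.1 and 66.2 CPM in IgG libraries. Anti-Ang2 4 was the 1 library of its group inside the IgG range (log2 fold change 0.32 ± 0.09, edgeR adjusted p = 0.0829, and 0.0309 without anti-Ang2 4). Its counts are uncertain, since 62.4% of its exonic bases overlap Prelid1 and the counting rule for shared bases is not given in the sources used here. In all, 5 members shared at least 20% of their exonic bases with another gene. Besides Rab24 these were Rab43 (75.35%), Rab4b (64.97%), Rab2b (63.99%) and Rab20 (25.57%), and the same limit applies to their counts.

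Rab genes of pigment cells were set beside the melanoma marker sum. Rab27a ties melanosomes to actin in pigment cells and acts on Weibel-Palade bodies in endothelium. It had 41.5, 28.1, 30.9, 13.8 and 11.5 CPM in anti-Ang2 libraries, against 12.8, 18.6, 14.6, 27.4 and 22.2 CPM in IgG libraries. Anti-Ang2 1, 2 and 3 were the 3 highest and anti-Ang2 5 the lowest of the 10, and the groups overlapped (log2 fold change 0.40 ± 0.34, edgeR adjusted p = 0.617). Rab38, which delivers pigment enzymes to melanosomes, had 23.1, 13.0, 12.3, 2.94 and 10.9 CPM in anti-Ang2 libraries, against 4.01, 10.54, 7.00, 7.64 and 2.38 CPM in IgG libraries. Its 4 highest libraries were anti-Ang2 1, 2, 3 and 5, while anti-Ang2 4 lay under 4 of the 5 IgG values (0.98 ± 0.49, adjusted p = 0.336). Rab32, which shares that task with Rab38, had 19.1, 14.4, 19.4, 18.6 and 16.7 CPM in anti-Ang2 libraries, against 12.6, 14.9, 22.4, 18.4 and 18.3 CPM in IgG libraries. Its groups overlapped throughout (0.03 ± 0.16, adjusted p = 0.961). Rab27b, a relative of Rab27a, averaged 10.3 ± 6.60 CPM after anti-Ang2 and 4.53 ± 3.31 CPM after IgG (1.18 ± 0.60, adjusted p = 0.34), and Rab34, of cilium formation and lysosome position, had 17.5, 11.6, 15.8, 6.44 and 5.95 CPM in anti-Ang2 libraries, against 0.56, 7.48, 1.46, 9.66 and 3.81 CPM in IgG libraries. These 2 genes were also picked for their values.

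The melanoma marker sum moved with several of these genes. Adding it as a covariate took the log2 fold change of Rab3b to 0.49, of Rab3a to 0.19, of Rab31 to 0.20, of Rab38 to 0.18, of Rab34 to -0.15, of Rab27b to -0.44 and of Rab27a to -0.63, all uncalled by edgeR. Rab3c had 3.05 without and 2.71 with the covariate, also uncalled. All 12 melanoma markers had positive log2 fold changes, and 1, Pmel, was called by edgeR, with 8 called by DESeq2 and 8 by limma-voom. The same covariate left 24 genes higher and 91 lower over all tested genes. The part of pigment cell RNA in the values of the Rab genes beyond these fits was not tested.

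**Figure D4:**
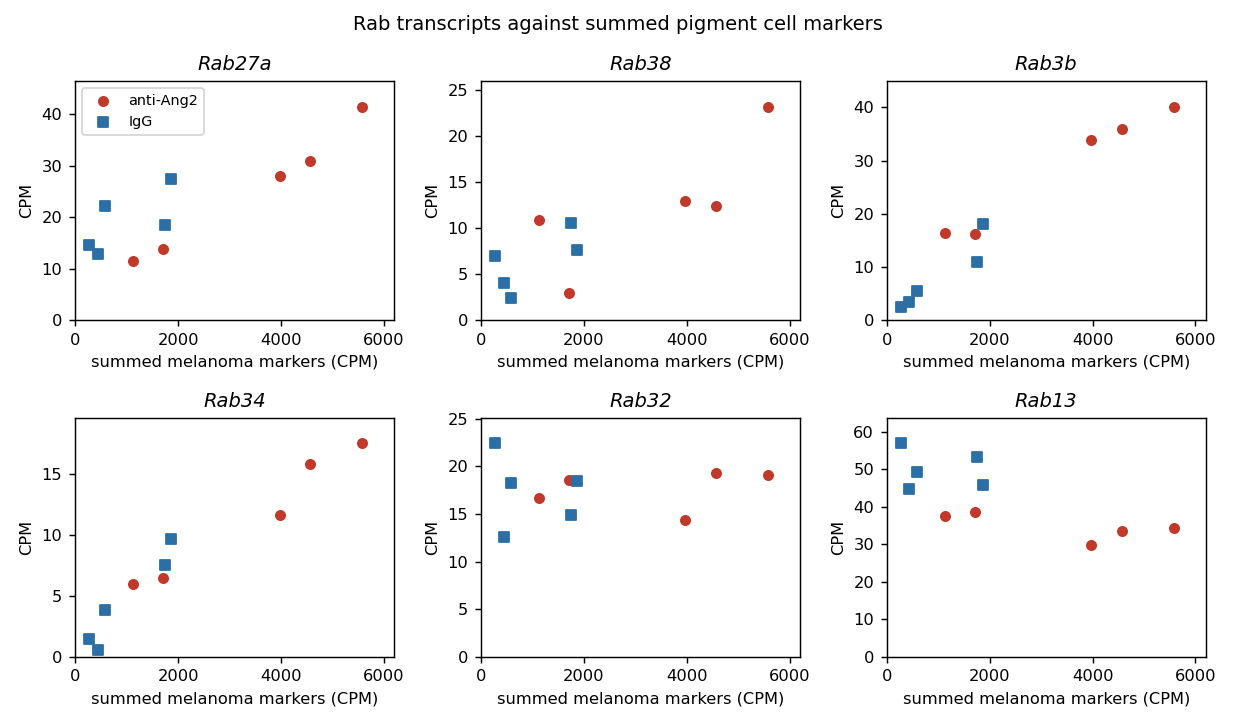
CPM of 6 Rab genes (y axis) against the summed CPM of the 12 melanoma markers (x axis), 1 point per library, anti-Ang2 as red circles and IgG as blue squares (n = 5 each). The Rab3b and Rab34 points lie high where the marker sum is high in either group, from 2.45 CPM at a sum of 269 CPM to 40.2 CPM at 5580 CPM for Rab3b, while the Rab13 values of the IgG group (44.6 to 56.9 CPM) lie above those of the anti-Ang2 group (29.8 to 38.7 CPM).

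Other genes of the Rab cycle were taken from lists written with earlier results of these data known. Among 35 exchange factors without a DENN domain, 2 rose and 1 fell by edgeR, which called 1.34% of all tested genes higher and 2.80% lower. The groups did not overlap for 6.10% of all tested genes, in either direction. Rin2, an exchange factor of the Rab5 subfamily, rose to 115 ± 11.7 CPM after anti-Ang2, against 76.5 ± 14.3 CPM after IgG (log2 fold change 0.59 ± 0.13, edgeR adjusted p = 0.0289). Every anti-Ang2 library (101 to 126 CPM) lay above every IgG library (54.5 to 93.5 CPM). Its relative Rin3, which activates Rab5 and Rab31, fell to 61.9 ± 4.54 CPM after anti-Ang2, against 97.3 ± 20.9 CPM after IgG (-0.65 ± 0.13, adjusted p = 0.0198), and all anti-Ang2 libraries (56.7 to 66.9 CPM) lay below all IgG libraries (76.2 to 126 CPM). Trappc6a, a subunit of the TRAPP complexes that act on Rab1 and Rab11, rose to 55.1 ± 2.62 CPM after anti-Ang2, against 38.8 ± 7.29 CPM after IgG (0.51 ± 0.12, adjusted p = 0.0346). IgG 1, at 51.5 CPM, reached into the anti-Ang2 range of 51.0 to 58.3 CPM.

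Of 39 GTPase-activating proteins, 2 rose and 0 fell by edgeR, against 1.34% and 2.80% of all tested genes. At an unadjusted p under 0.05, 4 were higher and 3 lower, against 9.14% and 9.10% of all tested genes. DESeq2 called 4 higher and 1 lower, against 5.46% and 5.94% of all genes with an adjusted p. With limma-voom, 3 were called higher and 0 lower, against 4.13% and 4.80%. Tbc1d4, which acts on Rab10 in the response of fat and muscle to insulin, rose to 259 ± 54.8 CPM after anti-Ang2, against 162 ± 19.8 CPM after IgG (log2 fold change 0.68 ± 0.14, edgeR adjusted p = 0.0234), with anti-Ang2 4 and 5 the highest at 301 and 325 CPM. Tbc1d15, which acts on Rab7, rose to 109 ± 9.87 CPM after anti-Ang2, against 84.7 ± 7.37 CPM after IgG (0.36 ± 0.09, adjusted p = 0.0398). Neither gene overlapped between the groups. Among 13 other tested genes of DENN-fold proteins, 1 rose and 0 fell by edgeR, against 1.34% and 2.80% of all tested genes. Flcn (folliculin, a regulator of lysosomal nutrient signalling) rose to 131 ± 18.6 CPM after anti-Ang2, against 98.2 ± 5.42 CPM after IgG (0.42 ± 0.10, adjusted p = 0.0436). Its lowest anti-Ang2 value, 100.03 CPM, lay inside the IgG range of 89.95 to 103 CPM. At an unadjusted p under 0.05, 4 were higher and 1 lower, against 9.14% and 9.10% of all tested genes. DESeq2 and limma-voom each called Flcn, St5 and 3110043O21Rik higher and 0 lower. These 2 tools called 5.46% and 4.13% of all genes with an adjusted p higher and 5.94% and 4.80% lower. St5 had a log2 fold change of 0.39 ± 0.13 (edgeR adjusted p = 0.115).

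Of 42 tested effectors, which bind the active Rab, 2 fell and 0 rose by edgeR, against 2.80% and 1.34% of all tested genes. At an unadjusted p under 0.05, 8 were higher and 9 lower, against 9.14% and 9.10% of all tested genes. DESeq2 called 4 higher and 3 lower, against 5.46% and 5.94% of all genes with an adjusted p. With limma-voom, 3 were called higher and 3 lower, against 4.13% and 4.80%. Eea1, the tether of early endosomes that binds Rab5, fell to 38.7 ± 3.35 CPM after anti-Ang2, against 53.3 ± 8.54 CPM after IgG (log2 fold change -0.46 ± 0.11, edgeR adjusted p = 0.0471). Micall1, a scaffold of recycling endosomes, fell to 103 ± 6.43 CPM after anti-Ang2, against 131 ± 9.28 CPM after IgG (-0.35 ± 0.07, adjusted p = 0.0225). For both, each anti-Ang2 library lay below each IgG library. Of the 7 genes for GDP dissociation inhibitors, Rab escort proteins and prenylation enzymes, 0 were called by edgeR. An unadjusted p under 0.05 was reached by 2, against 18.2% of all tested genes in either direction. DESeq2 and limma-voom each called 1 higher, Rabggta, which codes for a subunit of Rab geranylgeranyl transferase.

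These calls depended on single libraries to different degrees. Leaving out 1 library at a time, Rin3 was lost only without IgG 5 (adjusted p = 0.0548). Tbc1d4 was lost without IgG 2, 3 or 5 or anti-Ang2 4, Micall1 without IgG 2, 3 or 5 or anti-Ang2 3, and Rin2 without IgG 2 or 5 or anti-Ang2 1, 2 or 3. Trappc6a held only without IgG 1, anti-Ang2 4 or anti-Ang2 5, Tbc1d15 without IgG 1 or anti-Ang2 5, Flcn without anti-Ang2 4 and Eea1 without IgG 4. Across those fits the highest adjusted p was 0.0734 for Tbc1d4, 0.0738 for Micall1, 0.074 for Rin2, 0.101 for Trappc6a, 0.0946 for Tbc1d15, 0.107 for Flcn and 0.108 for Eea1. With the melanoma marker sum as a covariate, these 8 genes and the 3 called members kept their direction and none kept an adjusted p under 0.05.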

How the data were processed

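RNA of tumour LEC of 10 mice was sequenced, 5 per treatment. Reads were aligned with STAR, counted with featureCounts and compared with DESeq2 on mm10, per the submitters' processing notes. Their versions, the annotation and the use of strand are not given in the sources used here. SMART-Seq v4, named in the labels, does not mark strand. The authors deposited 1 table. Per the file headers it holds raw counts, which entered every test, and FPKM, used for levels only. The deposited TPM columns sum to more than TPM can, so they were treated as a score and not used. The deposited log2 fold changes and adjusted p-values are the authors' own.

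Counts were tested with edgeR 4.0.16 (R 4.3.3; TMM, filterByExpr with a minimum count of 10 and total of 15, quasi-likelihood F test, two-sided, Benjamini-Hochberg over all 16240 tested genes, threshold 0.05). The SE of an edgeR log2 fold change was derived as its absolute value divided by the square root of the F statistic. CPM use the TMM library size. DESeq2 1.42.0 and limma 3.58.1 (voom with quality weights), size factors in place of TMM, no filter, a replicate block, marker sums as covariates and left-out libraries were the alternatives. Marker sums, each a sum of CPM over a list, were compared with an exact permutation test over 252 arrangements. Exon overlap came from GENCODE M21, matched by gene ID without version (73 of 73 members). Counts come from reads without molecular identifiers.

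Members and lists were chosen with earlier results of these data known. By rule, values in every library are given for called members, the 5 Rab and 2 Dennd genes of highest mean FPKM, the Rab paired with a called Dennd gene, and Rab27a, Rab32 and Rab38; of other lists, called genes are named. The other genes named with values were chosen after their values were seen.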

Additional observations from a re-analysis of the deposited data

Results flagged for a closer look

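In 88 groups of 5 libraries (each named gene and each of the 7 marker sums in each treatment), the gap between the most distant library and its nearest neighbour was compared with the group's range, and 5 groups passed the critical share of 0.71. Chance flags about 1 in 20 such groups. Dennd4a stood at 231 CPM in anti-Ang2 5, against 122 to 151 CPM in the other anti-Ang2 libraries. Trappc6a stood at 51.5 CPM in IgG 1, against 33.5 to 38.3 CPM in the other IgG libraries. Tbc1d15 stood at 126 CPM in anti-Ang2 4, against 103 to 106 CPM in the rest of its group. The summed macrophage markers stood at 206 CPM in IgG 1, against 52.1 to 85.5 CPM in the rest of the IgG group. The summed lymphocyte markers stood at 8.22 CPM in IgG 4, against 0.82 to 2.46 CPM in the rest of the IgG group.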

How the results depend on the processing

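For 37 named genes under 19 alternatives each, 552 values kept direction and side of the threshold, 106 kept direction and lost the threshold, 21 gained it and 24 changed sign; where a value moved, the cause was not tested unless stated. The marker sum fits were planned, and the scalings and omissions applied to the marker sums themselves were chosen after seeing the data. Over all tested genes (217 higher, 454 lower), the calls were 810 and 880 with DESeq2, 670 and 780 with limma-voom, 24 and 91 with the melanoma covariate, 45 and 167 with the macrophage covariate, 55 and 178 without anti-Ang2 1, 2 and 3, 531 and 598 without anti-Ang2 4 and 5, and 82 to 326 and 259 to 468 when 1 library was left out. Rab genes called higher (0) were 4 with DESeq2 and without anti-Ang2 4 and 5, 5 with limma-voom, and 0 to 1 when 1 library was left out (Rab3c without IgG 2, Rab3b without IgG 4, Rab24 without anti-Ang2 4, Rab31 without anti-Ang2 5). Rab genes called lower (1) were 2 with DESeq2 (with Rab40b), with limma-voom and without anti-Ang2 4 and 5 (with Rab11a), 0 with either marker sum and without anti-Ang2 1, 2 and 3, and 1 to 2 when 1 library was left out (with Rab3d, without IgG 1). Dennd genes called lower (2) were 3 without anti-Ang2 4 and 5 (with Dennd4a) and with DESeq2 and limma-voom (with Dennd1a), 1 without a filter, with the macrophage sum and without anti-Ang2 1, 2 and 3, 0 with the melanoma sum, and 1 to 2 when 1 library was left out. The log2 ratio of the melanoma marker sum was 1.54 to 2.16 and that of the macrophage sum 0.66 to 1.38 when 1 library was left out.

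The sign changes were all of uncalled genes. Without anti-Ang2 4 and 5 they were Rab1b (0.015), Rab2a (-0.021) and Rab9 (-0.082). Without anti-Ang2 1, 2 and 3 they were Dennd6a (0.11), Rab14 (0.12), Rab27a (-0.60), Dennd4a (0.092) and Dennd5a (-0.057). With the melanoma sum they were Dennd6a (0.046), Rab14 (0.064), Rab27a (-0.63), Dennd2d (0.56), Dennd4a (0.16) and Rab34 (-0.15). With 1 library left out, Rab14 ran from -0.053 to 0.021, Rab32 from -0.070 to 0.14 and Dennd2d from -0.42 to 0.039.

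Correlations of deviations between same-numbered libraries ran from -0.12 to 0.11. Such values cannot decide whether the replicate number paired the mice. With the number as a replicate block, 82 genes were higher and 268 lower, with 0 Rab genes and 0 Dennd genes called in either direction; Dennd2a had -0.75 (adjusted p = 0.0673), Rab13 -0.52 (0.0764) and Dennd6b -0.55 (0.101). With 5 mice per group, the median SE was 0.84 for Rab genes under 1 FPKM against 0.09 for those of at least 10 FPKM, so differences in scarce Rab transcripts were not detectable at this depth unless very large.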
